A study of Mus musculus with 2 samples.

Results

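Arterial endothelial cells line the vessels that bring blood into a lymph node. In single-cell RNA sequencing of lymph node endothelium, 556 of 10612 deposited cell barcodes were taken as arterial cells, from 5260 cells that passed a blood endothelial gate. The 2 libraries each mixed 4 pools that carried separate hashtags (antibody-borne oligonucleotides), so the arterial cells fall into 8 sums, 2 for each pool. The pools are peripheral nodes of wild-type (WT) mice, mesenteric nodes of WT mice, peripheral nodes of Xbp1-KO mice and mesenteric nodes of Xbp1-KO mice. All mice had received tamoxifen, the WT mice included. The XBP1 protein is made active by splicing of its mRNA when unfolded proteins build up in the endoplasmic reticulum (ER), and it then turns on genes for folding and secretion. The labels do not state the Cre line, the cells in which it acts, the deleted exons, or the age, sex and number of the animals in a pool. WT means here only what the label says, since a tamoxifen-treated control may or may not carry a Cre or a floxed allele.

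Endothelial cells take on an arterial state under high flow and strong Notch signalling. VEGF signalling raises the Notch ligand Dll4, Notch targets such as Hey1 and the ephrin Efnb2 mark the arterial side, and the transcription factor SOX17 acts upstream of Notch. Connexins 37 and 40 (Gja4 and Gja5) couple arterial cells to each other and to smooth muscle. Towards the capillaries arterial cells change gradually, and in lymph nodes the capillaries drain into high endothelial venules, where lymphocytes enter.

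Members were chosen from their own transcripts. A cell had to pass a blood endothelial gate on Flt1, Ly6c1 and Cd34, with lymphatic and strongly Glycam1-positive cells left out. It then needed at least 2 unique molecular identifiers (UMIs, each standing for 1 captured RNA molecule) of Gja5, Stmn2, Sema3g and Fbln5 in all, more than of each of 5 panels for other blood endothelial states. Stmn2 encodes a microtubule regulator, Sema3g a secreted semaphorin and Fbln5 a protein of elastic fibres. Gja5 lies at chr3:96904693-97077416, Stmn2 at chr3:8509360-8561606, Sema3g at chr14:31217860-31230352 and Fbln5 at chr12:101746565-101819055 (GRCm38, GENCODE M21). Since these genes chose the cells, their levels only describe the choice. Sema3g had a UMI in 81.8% of members and in 15.4% of the other gated cells, Fbln5 in 69.6% and 5.10%, Stmn2 in 64.4% and 3.93%, and Gja5 in 24.8% and 1.32%. All 4 genes were seen together in 73 members, 3 of them in 173, 2 in 217 and 1 in 93. The threshold cut through a continuum. There were 92 members with a panel sum of 2, 82 with 3 and 382 with 4 or more, and just outside lay 58 cells with a sum of 1 that exceeded the other panels, 72 with a tie and 280 in which another panel was higher. Of those 280 cells, 177 were below the panel of Enpp2, Serpinb1a, Lipg and Inhbb.

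The 8 arterial sums held 28 to 137 cells and 85192 to 372198 UMIs, with a median of 2011 to 3167 UMIs in a cell. Levels are in CPM (the UMIs of a gene scaled to the total of its sum). Transcripts of Xist were at 413 to 484 CPM in the arterial sums of the Xbp1-KO pools of library 1 and the WT pools of library 2, and at 0 to 27.0 CPM in the other 4, and Ddx3y was the other way round (48.4 to 71.9 CPM where Xist was low, at most 6.18 CPM elsewhere). By these genes the genotypes differed in sex within each library, in opposite directions in the 2 libraries, so the peripheral and mesenteric pools of a genotype and library were alike in sex. Markers of other cells were low but not absent in the arterial sums. The 14 blood cell markers summed to 0 to 53.9 CPM and the 6 markers of dividing cells to 0 to 12.4 CPM, while 14 mural and smooth muscle markers summed to 82.6 to 1350 CPM and 10 fibroblastic markers to 0 to 1433 CPM. These came from few cells. Dcn, a fibroblast proteoglycan, was seen in 4 members, with 88 of its 109 UMIs in 1 cell, and the smooth muscle gene Acta2 in 16 members. The 2 libraries shared 3 barcodes, none of them arterial in both.

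Other arterial genes, which the rule did not use, describe the members further; the list was chosen with earlier results of these data known, and it is no independent support for the label. Of a list of 36 other arterial genes, 34 reached 20 CPM, some of them, such as Vegfc, Alpl and Bmx, only through the arterial sums, and 29 of these were higher in the arterial sum than in the sum of the other gated blood endothelial cells in 8 of 8 pools, with none lower in all. The median log2 ratio of the list was 1.32, against 0.05 over all 6034 genes at that level, of which 7.34% were higher and 6.18% lower in 8 of 8 pools. Since the members were picked by expression, these shares and all levels set against other cells are descriptions, without a test. The widest gap was that of Vegfc, a growth factor for lymphatic vessels: its level was 98.7, 126 and 216 CPM (lowest, median and highest of 8 arterial sums) and 1.12, 3.94 and 7.75 CPM in the other cells. That is a ratio of means of 33.7, with Vegfc seen in 24.6% of members and 1.13% of the other cells. Among the classes of other cells it was highest in those of the venous panel, at 34.1 and 36.9 CPM in the 2 libraries. Next in order came S100a4 (a calcium-binding protein), Nebl (an actin-binding protein), Pcsk5 (a proprotein convertase), Tmem100 (a membrane protein induced by BMP9 and BMP10 signalling) and Col8a1 (a chain of type VIII collagen), with ratios of 21.7 to 30.3. Alpl (tissue-nonspecific alkaline phosphatase) stood at 130, 188 and 272 CPM in arterial and 2.43, 8.54 and 22.5 CPM in other cells. The arterial tyrosine kinase gene Bmx reached 94.4, 104 and 216 CPM against 4.26, 11.8 and 25.0 CPM, and the next highest class was again the venous one with 96.5 and 55.3 CPM. For each of these genes the lowest arterial sum lay above the highest sum of other cells.

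**Figure D1:**
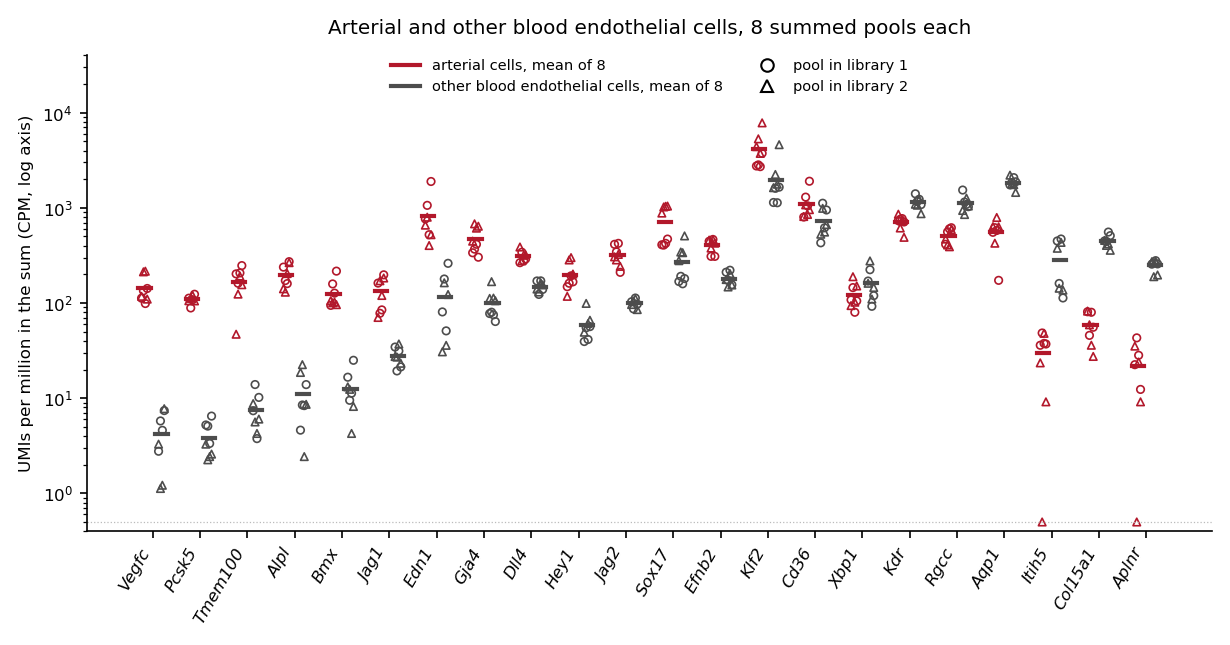
Level of 22 genes in CPM (logarithmic axis) in the summed arterial cells (red) and the summed other gated blood endothelial cells (grey) of each pool; circles are pools of library 1, triangles of library 2, bars the means of 8, and symbols on the dotted line are sums with no UMI. Vegfc, Pcsk5, Tmem100, Alpl, Bmx and Jag1 do not overlap between the 2 kinds of cell, Xbp1 overlaps, and Itih5, Col15a1 and Aplnr are lower in all 8 arterial sums.

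The Notch pathway was higher on its ligand and target sides. The ligand Jag1 was at 70.4, 141 and 198 CPM in the arterial sums and at 19.3, 27.2 and 37.1 CPM in the other cells. Jag2 was at 210, 314 and 423 CPM against 85.2, 100 and 113 CPM, and Dll4, the ligand best known from sprouting and arterial cells, at 265, 304 and 387 CPM against 123, 148 and 171 CPM. These 3 ligands were higher in 8 of 8 pools, as were 7.34% of all 6034 genes. Dll1 overlapped between the 2 kinds of cell, at 12.3 to 41.2 CPM against 20.7 to 36.5 CPM. Of 6 Notch targets at or above 20 CPM, 5 were higher in 8 of 8 pools. Hey1, a transcriptional repressor, had 117, 180 and 300 CPM against 39.4, 55.7 and 99.0 CPM, and Nrarp, a feedback inhibitor of Notch, had 86.0, 155 and 189 CPM against 39.6, 68.8 and 84.3 CPM. Hey2 was close to the detection limit, at 0 to 22.9 CPM. The 13 receptors and modulators showed little of this, with Notch4 as the only one higher in every pool (105, 172 and 216 CPM against 77.5, 101 and 120 CPM).

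Junction and guidance genes split by family member. Gja4 (connexin 37) was at 303, 430 and 679 CPM in arterial sums and 63.9, 92.7 and 168 CPM in other cells. Gja1 (connexin 43) was lower in 7 of 8 pools, at 110, 152 and 195 CPM against 136, 189 and 230 CPM. The ephrin Efnb2 was at 309, 435 and 465 CPM against 147, 174 and 221 CPM, and its receptor Ephb4, a venous marker in many beds, overlapped at 98.7 to 144 CPM against 78.4 to 124 CPM. Efna1 and the receptor Epha4 were also higher in all pools. Among 18 transcription factors of the SOX, FOX, ETS, GATA and NR2F families and related factors, Sox17, Mecom, Foxp1 and Gata2 were higher in 8 of 8 pools and Ets2 and Prdm1 lower. Sox17 had 406, 675 and 1043 CPM against 159, 234 and 507 CPM, and Mecom, a zinc finger factor, 354, 394 and 516 CPM against 105, 129 and 152 CPM. Nr2f2, which specifies veins, was at 0, 44.6 and 84.6 CPM in arterial sums and at 38.3, 64.0 and 77.9 CPM in the others, so that it did not separate them.

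Of 9 vessel tone genes that reached 20 CPM, 5 were higher and none lower in 8 of 8 pools. Edn1, the precursor of the vasoconstrictor endothelin-1, was at 402, 711 and 1890 CPM in arterial sums and at 30.7, 102 and 261 CPM in other cells. Its converting enzyme Ece1 was higher in every pool by a ratio of 1.26, the angiotensin-converting enzyme Ace by 2.82, the nitric oxide synthase Nos3 by 2.08 and the calcium channel Trpv4 by 4.65. The prostaglandin synthase Ptgs1, too low to be counted among the 9, was lower in every pool, at 0, 4.53 and 10.8 CPM against 19.1, 29.9 and 39.5 CPM. Of 13 flow-responsive genes, 5 were higher and 5 lower in 8 of 8 pools. Klf2, a transcription factor induced by laminar shear, was at 2707, 3732 and 7808 CPM against 1130, 1638 and 4605 CPM; each pool's arterial sum was the higher one although the ranges overlapped. Piezo1, a mechanosensitive channel, had 50.3, 71.2 and 94.0 CPM against 87.0, 102 and 113 CPM. The sphingosine 1-phosphate receptor gene S1pr1 was higher (909, 1068 and 1288 CPM against 502, 591 and 663 CPM), and Kdr, the main VEGF receptor, lower (489, 729 and 857 CPM against 867, 1127 and 1404 CPM).

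The matrix genes differed in kind. Of 7 elastic fibre genes outside the rule, Eln, Fbn1, Fbln2, Ltbp4 and Tgfb2 were higher in 8 of 8 pools and Ltbp2 was lower. Elastin itself (Eln) was at 70.8, 105 and 162 CPM against 27.0, 50.1 and 80.1 CPM. Fbln2, a further fibulin, had 458, 726 and 994 CPM against 114, 192 and 335 CPM. Basement membrane genes went mostly the other way, with 7 of 14 lower and 2 higher in all pools. The type IV collagen chains Col4a1 (640, 747 and 869 CPM against 1401, 1573 and 1889 CPM) and Col4a2 did not overlap, and Col15a1 had 27.4, 57.3 and 82.2 CPM against 358, 446 and 556 CPM. The exceptions were Lamb2 (178, 245 and 354 CPM against 89.5, 117 and 136 CPM) and Col18a1 (80.9, 125 and 153 CPM against 4.50, 16.3 and 22.1 CPM), the source of endostatin. Of 18 genes of the BMP and TGF-beta pathway, 9 were higher in every pool and 3 lower. The higher ones were the receptors Acvrl1 and Tgfbr2, the ligand Tgfb2, the inhibitory Smad6 and Smad7, the targets Id1, Id2 and Id3, and Tmem100. The co-receptor Tgfbr3 and the receptor-activated Smad1 and Smad5 were lower.

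Capillary and venous genes were mostly lower but not uniformly. Of 16 capillary markers 9 were lower and 3 higher in 8 of 8 pools. Rgcc, a cell cycle regulator, was at 390, 514 and 618 CPM against 850.0, 1065 and 1537 CPM, and Gpihbp1, which anchors lipoprotein lipase, at 466, 642 and 766 CPM against 908, 1044 and 1455 CPM. The fatty acid transporter Cd36 was one of the 3 higher ones, at 799.8, 1002 and 1902 CPM against 429, 641 and 1117 CPM, and Tcf15 and Kitl were the others. Aplnr, the apelin receptor, had 0, 23.2 and 43.0 CPM against 189, 261 and 278 CPM. Of 9 venous markers 5 were lower in all pools, while Vcam1, an adhesion molecule that leukocytes bind, was higher in all (70.4, 107 and 174 CPM against 21.9, 39.9 and 70.6 CPM). Vcam1 was higher still in cells of the venous panel, at 204 and 288 CPM in the 2 libraries. Among the 15 genes of leukocyte adhesion and chemokines, Icam2, Cx3cl1 and Mcam were the other 3 that were higher, and Icam1, Jam3, Cxcl9 and Ackr1 the 4 that were lower in all pools. Jam3, a junctional adhesion molecule, was at 37.0, 83.1 and 121 CPM against 224, 299 and 401 CPM. Some genes outside the rule were ranked by ratio: those lower in 8 of 8 pools with at least 50 CPM in the other cells. Among these the lowest ratio was that of the haemoglobin gene Hbb-bs. It had 1 UMI in the arterial cells and reached 2263 CPM in 1 sum of other cells.

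Within the members, levels of arterial and capillary genes differed with the panel sum. Since the same 4 genes chose the members, this describes the choice and is no evidence of a gradient. Members with a panel sum of 8 or more had a median of 3272 UMIs against 2040 in members with a sum of 2, which bears on how many panel UMIs a cell could show; the levels given here are CPM, and the part of depth was not tested. Of the 34 listed arterial genes, 27 (79.4%) were higher in both libraries at a sum of 8 or more than at 2, and 13 of 16 capillary markers (81.2%) were lower. Over all 6034 genes these shares were 31.4% and 23.1%. Gja4 was at 239 and 269 CPM (library 1 and library 2) at a sum of 2 and at 514 and 837 CPM at a sum of 8 or more. Vegfc went from 63.3 and 40.3 CPM to 214 and 266 CPM, and Pcsk5 from 21.1 and 40.3 CPM to 168 and 213 CPM. Rgcc was at 1005 and 537 CPM at a sum of 2 and at 267 and 217 CPM at the upper end, and Aqp1, a water channel, at 858 and 1034 CPM and at 405 and 380 CPM. Hey1 and Dll4 were also higher at the upper end in both libraries (49.2 and 201 CPM to 217 and 262 CPM for Hey1, and 232 and 201 CPM to 409 and 403 CPM for Dll4), while the capillary gene Kdr was lower (1005 and 739 CPM to 745 and 513 CPM). The sums between did not follow a steady order for all of these: in library 2, Rgcc was at 1035 CPM and Vegfc and Pcsk5 were at 22.7 CPM at a sum of 3, Dll4 was lower at sums of 4 to 7 than at 3 in both libraries, and Hey1 was lower at 4 to 7 than at 3 in library 1 and lower at 3 than at 2 in library 2. The cells with a sum of 1 just outside the rule had 80.0 and 277 CPM of Gja4 and 1344 and 1620 CPM of Rgcc, and those with no UMI of any panel had 26.5 and 57.1 CPM of Gja4 and 1873 and 1376 CPM of Rgcc.

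**Figure D2:**
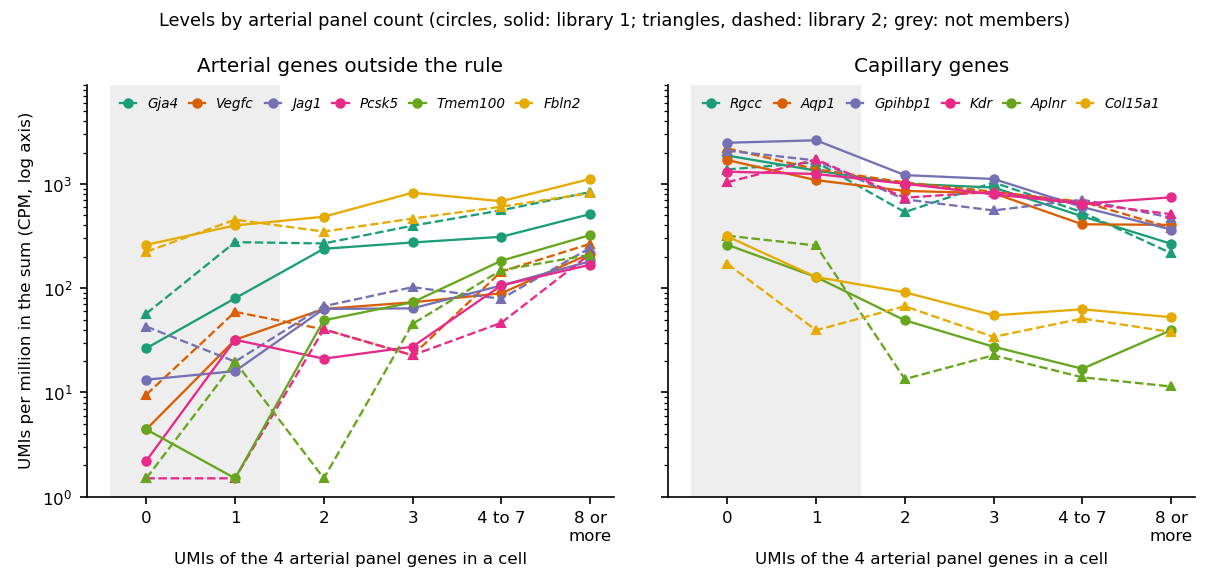
Levels of 6 arterial and 6 capillary genes in CPM (logarithmic axis) by the number of UMIs of the 4 arterial panel genes in a cell; grey marks cells outside the rule with no UMI of another panel (sum 0) or with a sum of 1 above the other panels, solid lines with circles are library 1, dashed lines with triangles library 2, and values under 1.5 CPM are drawn at 1.5. Gja4 is higher at a sum of 8 or more than at 2 in both libraries, and Rgcc is lower.

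The members also differed in Mgp, which overlapped with the panel. Mgp encodes matrix Gla protein, an inhibitor of calcification and of BMP signalling known from the walls of larger arteries. It was seen in 55 of the 556 members, with up to 41 UMIs in a cell, and this split was chosen after its values had been seen, so it carries no test. Mgp was at 0 and 13.4 CPM (library 1 and library 2) in members with a panel sum of 2 and at 633 and 373 CPM in those with 8 or more, so the split overlaps with the panel sum described above. The members with Mgp had a median of 2406 UMIs and those without 2449. Of 33 listed arterial genes 20 were higher and 10 (30.3%) lower with Mgp in both libraries, against 22% and 31.6% of 6010 genes. In the members with Mgp, Jag1 was at 370 and 387 CPM (library 1 and library 2) and in those without at 93.2 and 124 CPM. Edn1 was at 2110 and 1310 CPM against 902 and 506 CPM, Alpl at 504 and 639 CPM against 170 and 152 CPM, and the tight junction gene Cldn5 at 1470 and 2710 CPM against 559 and 1010 CPM. Eln was at 336 and 202 CPM against 90.9 and 87.8 CPM. The ligands Bmp2 (112 and 118 CPM against 15.9 and 25.8 CPM), Bmp6 (89.6 and 235 CPM against 19.3 and 15.5 CPM) and Vegfa (123 and 118 CPM against 20.5 and 13.8 CPM) were also higher in both libraries, and so was the serine protease gene Htra1 (179 and 370 CPM against 35.2 and 37.9 CPM). Gkn3, a gastrokine, was seen in 9 of 55 members with Mgp and in 1 of 501 without.

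Capillary genes were low in the members with Mgp. Gpihbp1 was at 101 and 0 CPM against 734 and 653 CPM in the members without, and Rgcc at 78.4 and 33.6 CPM against 592 and 518 CPM. The fatty acid-binding protein gene Fabp4 was at 1280 and 1410 CPM against 8640 and 5400 CPM. Among the 10 listed arterial genes that were lower with Mgp was the retinol-binding protein gene Rbp7, at 134 and 202 CPM against 1280 and 849 CPM. Cxcl12 (907 and 690 CPM against 3160 and 2820 CPM) and Igfbp3 (470 and 252 CPM against 1400 and 1160 CPM) were others. Gja1 was at 11.2 and 0 CPM against 160 and 167 CPM, so connexin 43 lay mostly in the members without Mgp, with connexin 37 present in both (370 and 1210 CPM against 359 and 556 CPM). Of the 16 capillary markers 15 were lower in both libraries, and of 12 fatty acid handling genes 9, against 31.6% of all genes. Interferon response genes were lower in 11 of 17 cases and dissociation response genes in 9 of 20, with none of either list higher in both libraries. The smooth muscle genes Acta2, Tagln, Myl9 and Tpm2 were higher in both libraries with Mgp, but rested on few cells. Acta2 was seen in 3 and Tagln in 2 of the 55 members, and both were at 0 CPM in the members with Mgp once members with at least 2 mural genes were left out, where Jag1 was at 376 and 441 CPM. In all, 4 of 55 (7.27%, exact 95% interval 2.02 to 17.6%) had at least 2 mural genes, against 19 of 501 (3.79%, 2.30 to 5.86%).

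**Figure D3:**
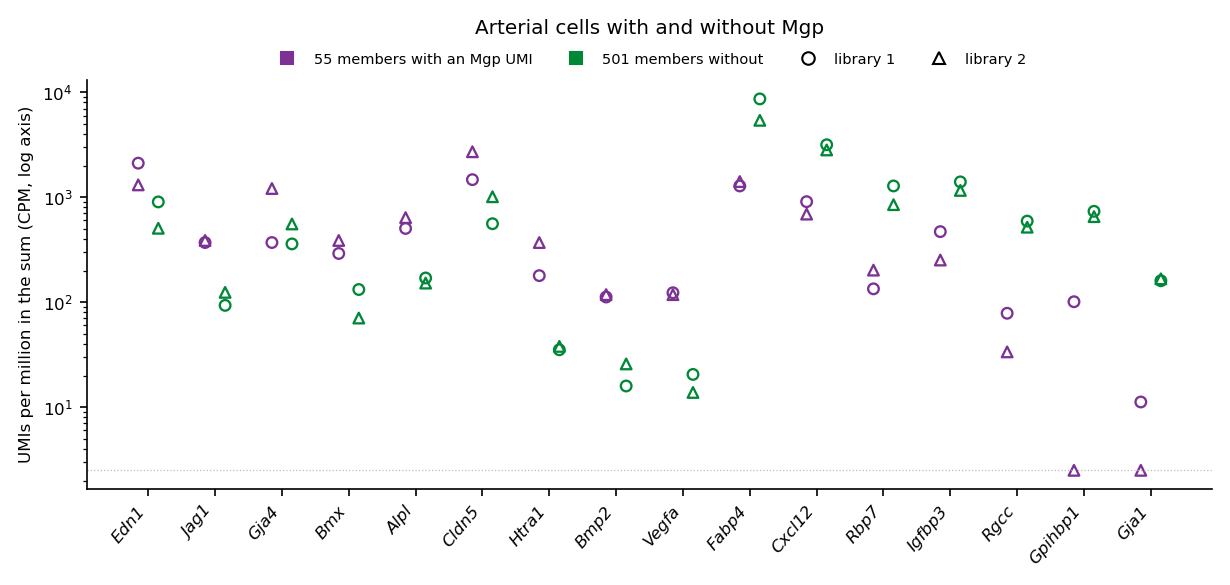
Levels of 16 genes in CPM (logarithmic axis) in the 55 arterial cells with an Mgp UMI (purple) and the 501 without (green), summed in each library (circle, library 1; triangle, library 2); symbols on the dotted line are sums with no UMI. Jag1, Alpl, Htra1, Bmp2 and Vegfa are higher with Mgp in both libraries and Fabp4, Rgcc, Gpihbp1 and Gja1 lower.

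Arterial cells made up 7.64% and 10.65% (library 1 and library 2) of the gated blood endothelial cells in WT peripheral nodes, 11.9% and 16.4% in WT mesenteric nodes, 9.18% and 9.96% in Xbp1-KO peripheral nodes and 14.02% and 10.66% in Xbp1-KO mesenteric nodes. The genotypes overlapped. The mean was 10.9% ± 2.13 (SD, n = 4 pools) in Xbp1-KO and 11.6% ± 3.63 in WT, a difference of -0.69 percentage points (two-sided exact permutation test, p = 0.743; the smallest p this design allows is 0.0286). Without library 1 the difference was -3.21 points and without library 2 it was 1.83 points, so its direction changed between the libraries. By Xist and Ddx3y the sex of each genotype changed with the library too. Within 1 library, genotype and sex cannot be told apart. All 4 mesenteric pools had a higher share than all 4 peripheral pools, by 3.89 points on average, though the lowest mesenteric and the highest peripheral pool were nearly equal. With Fbln5 left out of the panel the pools overlapped: the Xbp1-KO mesenteric share of library 2 was 6.885%, below 3 of the 4 peripheral shares, and 13 of 16 pairs of pools kept the order. This is given without a test, since 6 of the 28 genes that the rule reads differed between the tissues in the gated cells (16 with a term for the library), Selp and Vwf of the venous panel included. With that term, 3 of the 4 arterial panel genes, Fbln5 (-0.79), Gja5 (-0.96) and Stmn2 (-0.56), were themselves lower in peripheral gated cells. Between the genotypes 0 of the 28 differed, and with the library term 1, Cytl1 of the venous panel (1.44, edgeR adjusted p = 0.0248), so the genotype share is not fully independent of the rule either.

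**Figure D4:**
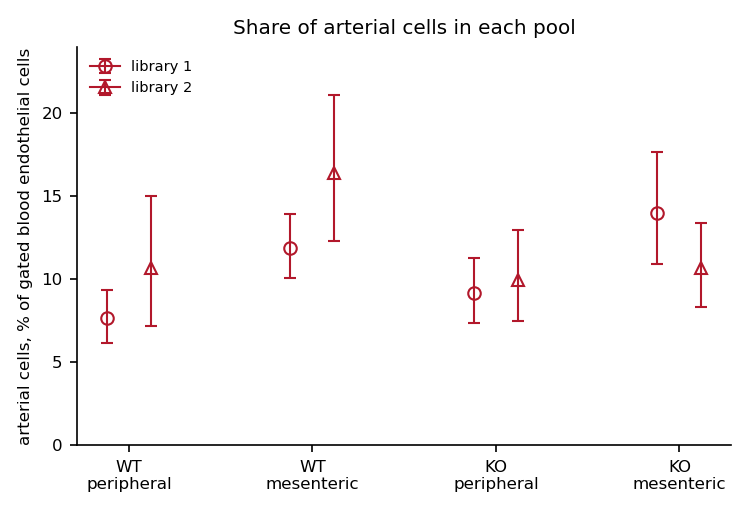
Arterial cells as a percentage of gated blood endothelial cells in each pool of library 1 (circles) and library 2 (triangles), with exact binomial 95% intervals that cover counting error only. The 4 mesenteric values are all above the 4 peripheral ones, at times by less than their intervals, and the genotypes overlap.

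Peripheral and mesenteric arterial cells differed in a few genes, among them the heat-shock genes Hspb1 and Dnajb1, which were higher in mesenteric cells. Of the 28 genes that the rule reads, 6 differed between the tissues in the gated cells (16 with a term for the library). The rule may thus have picked a different range of cells in each tissue. Its part in the differences that follow was not tested. Over both genotypes, 4 of 3976 tested genes (0.101%) passed edgeR's quasi-likelihood test at an adjusted p of 0.05, and 167 had an unadjusted p below that; in all that follows a negative log2 difference means lower in peripheral cells. Hspb1 encodes the small heat-shock protein HSP27. It was at 4430 and 3968 CPM (library 1 and library 2) in WT peripheral, 3877 and 5077 CPM in Xbp1-KO peripheral, 6231 and 8898 CPM in WT mesenteric and 8509 and 11480 CPM in Xbp1-KO mesenteric arterial cells. Every mesenteric value lay above every peripheral one, with a log2 difference of -1.04 ± 0.16 (SE, n = 4 sums in each tissue, edgeR adjusted p = 0.0117). Dnajb1, the co-chaperone HSP40, was at 252 and 188 CPM in WT peripheral, 216 and 204 CPM in Xbp1-KO peripheral, 320 and 631 CPM in WT mesenteric and 605 and 1349 CPM in Xbp1-KO mesenteric cells. The tissues did not overlap, and the log2 difference was -1.66 ± 0.27 (edgeR adjusted p = 0.0117). Rhob, a small GTPase gene of the immediate-early class, was at 827 and 716 CPM, 757 and 761 CPM, 1193 and 1333 CPM, and 1309 and 1592 CPM in the same order of pools. Its log2 difference was -0.85 ± 0.16 (edgeR adjusted p = 0.0404).

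Mgp was the gene higher in peripheral arterial cells. It was at 355 and 305 CPM in WT peripheral and 526 and 306 CPM in Xbp1-KO peripheral cells, and at 124 and 53.1 CPM in WT mesenteric and 204 and 197 CPM in Xbp1-KO mesenteric cells. The tissues did not overlap, and the log2 difference was 1.40 ± 0.25 (n = 4 sums in each tissue, edgeR adjusted p = 0.0252). The share of members with an Mgp UMI was 16.5% and 14.3% in WT peripheral, 10.8% and 12.2% in Xbp1-KO peripheral, 6.57% and 8.33% in WT mesenteric and 9.84% and 4.62% in Xbp1-KO mesenteric pools, or 3 to 14 cells in a pool, and 5 cells held 35.8% of all Mgp UMIs. All 8 tested mural and smooth muscle markers were above 0 in the same comparison (median log2 difference 0.94, none passed), and their part in the Mgp difference was not tested. In the other blood endothelial cells Mgp was highest in the cells of the venous panel, at 1226 and 992 CPM in the 2 libraries. Over all the other cells it was at 67.3 and 10.95 CPM in WT peripheral and 20.5 and 19.5 CPM in Xbp1-KO peripheral, and at 31.5 and 27.0 CPM in WT mesenteric and 146 and 94.3 CPM in Xbp1-KO mesenteric cells. The Xbp1-KO mesenteric sums were the highest, and in WT library 1 the peripheral sum was above the mesenteric one. The log2 difference there was -0.99 ± 0.33, which did not pass (edgeR adjusted p = 0.222), and -1.0 ± 0.25 with a library term, which did (edgeR adjusted p = 0.0422). The difference between the tissue effects of the 2 kinds of cell was 2.37 ± 0.49 for Mgp, which did not pass over 8535 genes (edgeR adjusted p = 0.998) but did with a term for each pool (2.30 ± 0.24, edgeR adjusted p = 3e-13).

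The median mitochondrial share of UMIs in a member was 2.42 to 3.36% in the 4 peripheral and 2.07 to 2.21% in the 4 mesenteric pools, without overlap, and its part in the tissue differences was not tested. The 4 calls were sensitive to single sums. No gene passed without the Xbp1-KO peripheral sum of library 1 or without the WT mesenteric sum of library 2, 2 genes passed without the WT peripheral sum of library 1, 8 without the Xbp1-KO mesenteric sum of library 1, and 9 or 12 passed without library 1 or library 2. None of the 4 changed direction in any of 23 alternatives, with log2 differences of 1.18 to 1.82 for Mgp, -2.43 to -0.92 for Dnajb1, -1.21 to -0.83 for Hspb1 and -1.04 to -0.68 for Rhob.

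The pools of 1 library shared a droplet run, and their sums deviated together. With a term for the library, 26 genes passed (0.654% of 3976, 6 higher and 20 lower in peripheral cells), all 4 genes above included. Thrsp, 1 of the 20, is a gene of a panel that the rule reads, and its call is no finding. The chaperones Hspa1a, Hspa1b, Hsp90aa1 and Hspa8 and the ubiquitin gene Ubb joined Hspb1 and Dnajb1 among the lower ones. Hspa1a was at 1937 and 3087 CPM in WT peripheral, 1659 and 3555 CPM in Xbp1-KO peripheral, 2552 and 5417 CPM in WT mesenteric and 3409 and 9802 CPM in Xbp1-KO mesenteric cells. Library 2 was the higher one in each pool, and within each library both mesenteric sums lay above both peripheral ones. With the term the log2 difference was -0.96 ± 0.10 (edgeR adjusted p = 2.2e-06), against an adjusted p of 0.46 without it. Hspa1a has a close copy in Hspa1b, and how reads were divided between both genes is uncertain. The labels' protocol describes the enzyme digestion for peripheral nodes and does not state separately how mesenteric nodes were handled. A list of 20 genes that respond to dissociation summed to 28130 and 34420 CPM in WT peripheral and 23680 and 36060 CPM in Xbp1-KO peripheral arterial cells. It summed to 24770 and 35780 CPM in WT mesenteric and 32410 and 61300 CPM in Xbp1-KO mesenteric arterial cells. The list holds 1 of the 3 genes called lower in peripheral cells without a library term. Its part in the heat-shock difference was not tested. Without the Xbp1-KO mesenteric sum of library 2, which stood highest on that list, 33 genes passed with the library term, 24 of the 26 among them, and Hspb1, Dnajb1, Hspa1a and Rhob were at log2 differences of -0.96, -1.32, -0.81 and -0.76.

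The promoters of Hspb1 and Dnajb1, the heat-shock genes that passed without a library term, and of Hspa1a, which passed with it, are shown. They are the 250 bases before the start of the gene, from RefSeq on GRCm38.p6, 5′ to 3′ on the gene's strand, with matches to GAANNTTC in capitals. This motif of 2 facing GAA units, the core of the heat-shock element, reads the same on both strands.
Hspb1, chr5:135887669-135887918, plus strand: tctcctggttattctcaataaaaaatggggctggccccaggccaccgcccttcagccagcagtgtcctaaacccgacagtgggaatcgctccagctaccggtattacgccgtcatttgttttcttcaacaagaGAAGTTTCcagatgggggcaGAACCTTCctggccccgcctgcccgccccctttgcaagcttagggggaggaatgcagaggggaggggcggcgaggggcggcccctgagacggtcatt
Dnajb1, chr8:83607925-83608174, plus strand: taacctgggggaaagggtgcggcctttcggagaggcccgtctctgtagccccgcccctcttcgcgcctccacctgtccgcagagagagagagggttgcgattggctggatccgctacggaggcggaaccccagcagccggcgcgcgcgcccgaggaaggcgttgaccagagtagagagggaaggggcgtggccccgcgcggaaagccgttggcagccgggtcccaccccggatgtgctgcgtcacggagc
Hspa1a, chr17:34972157-34972406, minus strand: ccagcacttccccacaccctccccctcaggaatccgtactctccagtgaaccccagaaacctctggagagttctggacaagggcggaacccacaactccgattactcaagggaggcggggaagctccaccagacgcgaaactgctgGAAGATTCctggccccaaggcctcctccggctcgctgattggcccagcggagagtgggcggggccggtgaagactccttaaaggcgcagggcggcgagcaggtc
That of Hspb1 holds 2 matches, that of Dnajb1 none and that of Hspa1a 1. Of 27025 promoter windows of this length, 1833 (6.78%) hold a match. Of 8 genes looked up (Hspb1, Dnajb1, Hspa1a, Hspa1b, Hsp90aa1, Hspa8, Hsph1 and Rhob) 6 had a window and 3 held a match, Hspa1b being the other one. A match is a run of letters, and whether a factor binds there was not measured.

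Of the other genes called with the library term, Edn1, Nkx2-3, Klf2, Cd36, Fabp5 and Ucp2 were higher in mesenteric arterial cells. The lists that hold such genes did not lean that way as a whole: without the library term 7 of 13 flow-responsive, 4 of 7 vessel tone and 6 of 11 fatty acid handling genes were above 0, with medians of 0.006, 0.088 and 0.167 against -0.006 over all genes. Edn1 was at 764 and 657 CPM in WT peripheral, 522 and 402 CPM in Xbp1-KO peripheral, 1061 and 797 CPM in WT mesenteric and 1890 and 522 CPM in Xbp1-KO mesenteric cells (-0.88 ± 0.18, edgeR adjusted p = 0.0107). The Xbp1-KO mesenteric value of library 2 lay within the peripheral range. The homeobox gene Nkx2-3, which shapes the vessels of gut-associated lymphoid tissue, was at 0 and 70.4 CPM in WT peripheral, 4.70 and 0 CPM in Xbp1-KO peripheral, 67.2 and 41.3 CPM in WT mesenteric and 67.9 and 124 CPM in Xbp1-KO mesenteric cells. Its log2 difference was -3.20 ± 0.66 (edgeR adjusted p = 0.0138), and the WT peripheral sum of library 2 did not follow it. Klf2 differed by -0.50 ± 0.09 (edgeR adjusted p = 0.00555), Cd36 by -0.60 ± 0.12 (edgeR adjusted p = 0.0138), Fabp5 by -1.13 ± 0.22 (edgeR adjusted p = 0.00725) and Ucp2, a mitochondrial carrier, by -1.10 ± 0.23 (edgeR adjusted p = 0.0170). Rassf9 (-1.12), Tsc22d1 (-0.77), Gadd45g (-0.64), Txnip (-0.62) and Depp1 (-0.60) made up the rest of the lower genes. Without the library term, and with 1 sum or 1 library left out at a time, the log2 difference ran from -5.82 to -1.86 for Nkx2-3, -1.57 to -0.25 for Fabp5, -1.23 to -0.31 for Edn1, -0.81 to -0.32 for Cd36 and -0.77 to -0.23 for Klf2, so their size rested on single sums. Higher in peripheral cells, beside Mgp, were Cldn5 (0.64 ± 0.11), the butyrophilin-like gene Btnl9 (0.77 ± 0.17), the complement genes Cfb (1.01 ± 0.24) and Cd55 (1.84 ± 0.35), and Marcksl1 (2.08 ± 0.36), with edgeR adjusted p of 0.00227 to 0.0494. Without the 39 members that had UMIs of at least 2 mural, fibroblastic or blood cell genes, 33 genes passed (0.937% of 3522), 23 of the 26 among them.

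**Figure D5:**
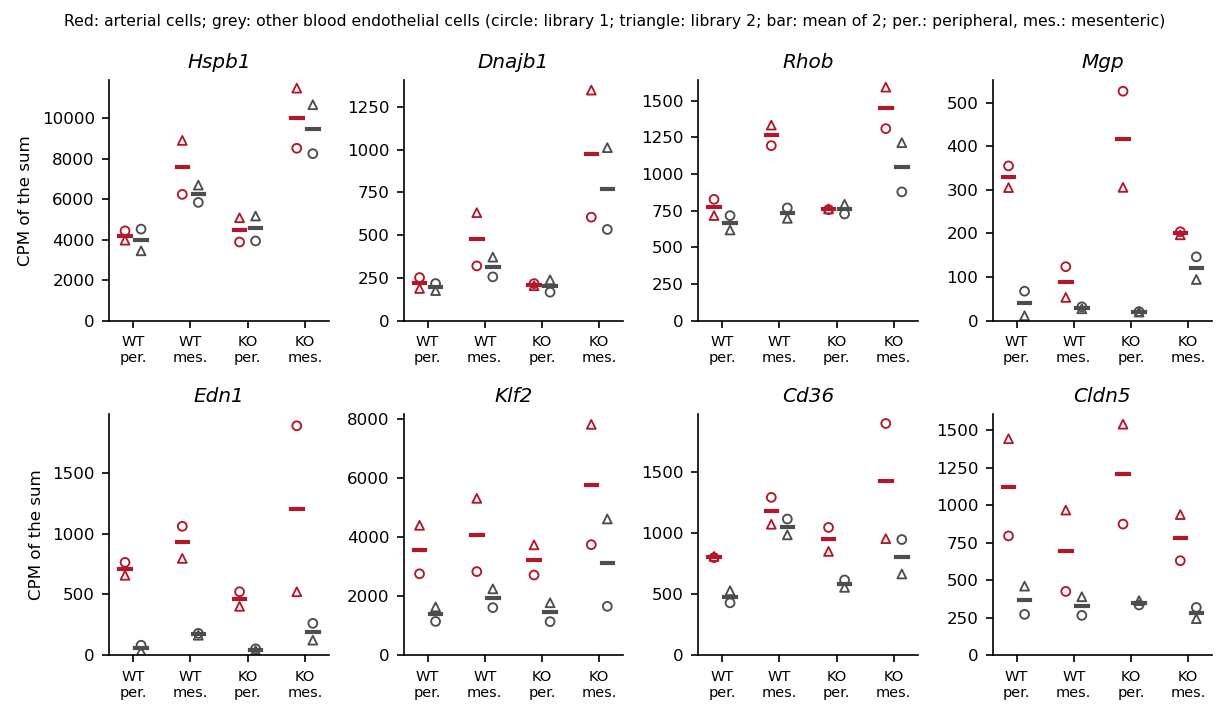
Levels of 8 genes in CPM (linear axes from 0) in arterial cells (red) and other gated blood endothelial cells (grey) of each pool; circles are library 1, triangles library 2, bars the mean of 2. Hspb1, Dnajb1 and Rhob are higher in all 4 mesenteric than in all 4 peripheral arterial sums, and Mgp is lower.

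The arterial tissue effect was set beside that of the other blood endothelial cells of the same pools. These other cells are a mixture of the states that the other panels mark. Genes of such panels differed between the tissues in all gated cells, for example Scgb3a1 (-3.66) and Penk (4.2) without a library term. The part of this mixture in the tissue effects of the other cells was not tested. There, without a library term, Hspb1 differed by -0.86 ± 0.16 (edgeR adjusted p = 0.00714) and Dnajb1 by -1.31 ± 0.25 (edgeR adjusted p = 0.00943), against -1.04 and -1.66 in arterial cells. Rhob differed by -0.31 ± 0.14 there (edgeR adjusted p = 0.577). Edn1 differed by -1.83 ± 0.34 (edgeR adjusted p = 0.00712) and Nkx2-3 by -6.16 ± 0.45 (edgeR adjusted p = 2.13e-07), each further from 0 than in arterial cells. With a library term, Ucp2 differed by -1.05 ± 0.11 in the other cells (edgeR adjusted p = 0.000151), Fabp5 by -1.03 ± 0.18 (edgeR adjusted p = 0.00554) and Cd36 by -0.81 ± 0.10 (edgeR adjusted p = 0.000816), beside -1.10, -1.13 and -0.60 in arterial cells, so these differences were seen in both kinds of cell. The test of the difference between both kinds of cell called 0 of 8535 genes (0%) in edgeR and 2 in DESeq2, with 360 at an unadjusted p under 0.05. With a term for each pool it called 44 (0.516%), 22 in each direction. Of these, Vwf belongs to the venous panel that the rule reads, which limits its level in members, and nothing is read from it. Among them Edn1 (0.93 ± 0.16, edgeR adjusted p = 4.2e-05) and Hspa1a (0.55 ± 0.09, edgeR adjusted p = 7.9e-06) had the smaller tissue difference in arterial cells. Rhob (-0.56 ± 0.11, edgeR adjusted p = 0.0021) and Egr1 (-0.75 ± 0.10, edgeR adjusted p = 1.6e-09) had the lower peripheral-against-mesenteric difference in arterial cells. Ace (-0.71 ± 0.16, edgeR adjusted p = 0.0071) and the mucosal addressin Madcam1 (6.90 ± 1.53, edgeR adjusted p = 0.0065) were also called. Madcam1 differed by -3.63 ± 0.32 in the other cells without a term for the pool. In the arterial sums it was at only 0 to 27.0 CPM. Its value rests on both, the arterial part near the detection limit, and nothing is read from its size.

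Between the genotypes, the arterial cells did not differ in any gene that passed. Over both tissues 0 of 3976 genes (0%) passed in edgeR, with 92 at an unadjusted p under 0.05, and DESeq2 called 0. In peripheral cells alone 0 passed (88 unadjusted), in mesenteric cells 0 (131 unadjusted) and for the difference between the tissues 0 (109 unadjusted). Xbp1 itself lies at chr11:5520659-5525893. It was at 108 and 93.9 CPM in WT peripheral, 145 and 189 CPM in WT mesenteric, 79.9 and 102 CPM in Xbp1-KO peripheral and 105 and 151 CPM in Xbp1-KO mesenteric arterial cells, so that the genotypes overlapped and Xbp1-KO was the lower one in 3 of 4 pairs of pools. The log2 difference of Xbp1-KO against WT was -0.26 ± 0.25 (n = 4 sums in each genotype, edgeR adjusted p = 0.9999). In the other blood endothelial cells it was -0.78 ± 0.15 (edgeR adjusted p = 0.235, and 0.0043 with a library term), and the difference between both kinds of cell was 0.51 ± 0.27 (unadjusted p = 0.0729 by edgeR, adjusted p = 0.9999). The assay reads the 3′ end of transcripts and the deleted exons are not stated, so the Xbp1 level does not check the genotype labels. Of 36 tested ER genes that XBP1 is known to induce, 0 passed, 18 were above and 18 below 0, and their median log2 difference was 0.002, against -0.001 over all genes. The 34 arterial list genes had a median of 0.11, with 21 above 0.

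The genes with the smallest p in the direction of Xbp1-KO were Ccn1, a matricellular protein gene (0.72 ± 0.20), Ucp2 (0.91 ± 0.25), Mcf2l (0.85 ± 0.26), Pi16 (2.11 ± 0.64) and Hsp90aa1 (0.58 ± 0.19). Those in the direction of WT were Mrpl54 (-1.22 ± 0.35), Szrd1 (-1.28 ± 0.39), Bnip2 (-0.75 ± 0.23), Vat1 (-0.69 ± 0.23) and Cfb (-0.77 ± 0.27). Each had the same direction in both tissues and both libraries, and an edgeR adjusted p of 0.9999. With 1 sum or 1 library left out, Pi16 ran from 1.36 to 5.54 and Hsp90aa1 from 0.35 to 0.89. In a fit of 1 library, genotype and sex cannot be told apart. Ucp2 was at 49.4 and 47.0 CPM in WT peripheral, 113 and 118 CPM in WT mesenteric, 94.0 and 114 CPM in Xbp1-KO peripheral and 222 and 169 CPM in Xbp1-KO mesenteric cells. Its values separated the genotypes within each tissue.

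With a term for the library, 0 genes passed for the genotype over both tissues and 20 passed in mesenteric cells (0.503% of 3976), all 20 higher in Xbp1-KO. A part of these were immediate-early and heat-shock genes. Fos was at 4041 and 4119 CPM in WT mesenteric and 5304 and 8874 CPM in Xbp1-KO mesenteric cells (0.79 ± 0.13, edgeR adjusted p = 0.0024). Egr1 was at 1529 and 1345 CPM against 2124 and 3197 CPM (0.90 ± 0.16, edgeR adjusted p = 0.0038), and Hsp90aa1 at 513 and 572 CPM against 877 and 1500 CPM (1.13 ± 0.17, edgeR adjusted p = 0.00057). Junb, Jund, Zfp36, Ppp1r15a, Hspa1a and Dnajb1 were also called. Of the 20 dissociation response genes 19 were above 0 there (median log2 difference 0.74 without the library term). That list draws on the same classes of gene, so it is no separate observation. Slc6a6, a taurine transporter gene, was called too (0.75 ± 0.16). A further set was Dcn, Col1a1, Col1a2, Col3a1, Gsn, C3, Tagln, Rgs5 and Pi16, genes of fibroblastic and mural cells. Their log2 differences were 2.00 to 7.30. Dcn was seen in 4 members, Col1a1 in 2 and Tagln in 16, while Pi16 was seen in 30 and Rgs5 in 37, with 54.4% and 48.5% of their UMIs in 5 cells. The fibroblastic markers summed to 48.4 and 0 CPM in WT mesenteric and 1433 and 27.4 CPM in Xbp1-KO mesenteric cells. Without the 39 members with such genes 17 passed (0.483%), 11 of the 20 among them, and Fos (0.78 ± 0.13), Egr1 (0.81 ± 0.15) and Hsp90aa1 (1.14 ± 0.17) were among the 17. Without the Xbp1-KO mesenteric sum of library 2, 19 passed (0.478%), 10 of the 20 among them, and Fos, Egr1 and Hsp90aa1 were not; the log2 difference was then 0.56 for Egr1 (edgeR adjusted p = 0.216) and 0.77 for Hsp90aa1 (edgeR adjusted p = 0.107). In peripheral cells 3 genes passed with the library term (0.0755%), Col3a1, Col1a2 and Gsn, all lower in Xbp1-KO, and none without the 39 members. The difference between the tissues called 9 genes (0.226%), Fos and Junb among them, all lower in the peripheral than in the mesenteric contrast. It called 10 genes (0.284%) without the 39 members, of which 2 were among the 9, and 16 (0.402%) without the Xbp1-KO mesenteric sum of library 2, of which Igfbp3 and Aqp1 (0.0503%) went the other way. The difference of the genotype effect between arterial and other cells, which without a term for the pool called 0 of 8535 genes in edgeR (304 at an unadjusted p under 0.05) and 0 in DESeq2, called 6 (0.0703%) with it. Of these, Stmn1, Fn1, C3, Gsn and Plac8 (0.0586%) had the higher Xbp1-KO against WT difference in arterial cells and Hspa1a the lower (-0.43 ± 0.09, edgeR adjusted p = 0.0045). Without the 39 members it called 7 (0.0864%), of which only Hspa1a was among the 6.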

How the data were processed

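The authors deposited UMI counts per gene and per hashtag for each cell of 2 droplet libraries. Per the file headers these counts came from Cell Ranger 6.0.1, while the submitters' processing notes name Cell Ranger 6.1 and mm10, and the labels name both a v2 and a 3′ v3 kit. Of 32285 gene identifiers 32158 (99.6%) were found in GENCODE M21.

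Cells needed 500 genes, at most 10% mitochondrial UMIs, and a leading hashtag with at least 10 UMIs and 3 times the next, which kept 9919 cells. The gate needed 3 UMIs of Flt1, Ly6c1 and Cd34 and fewer than 20 of Glycam1. The members and gene lists were chosen with earlier results of these data known. Genes were named by a fixed rule: all that passed where these were few, otherwise those with the widest change or, where none passed, the smallest p and 1 direction in every library pair, together with Xbp1, the rule's panels, the listed genes, and the genes with the widest ratios to other cells. Genes called with a library term, and the split by Mgp, were named after their values were seen.

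Raw counts were summed by pool and library into 8 sums and tested with edgeR 4.0.16 (TMM, its filter on low counts, quasi-likelihood, Benjamini-Hochberg at 0.05) in R 4.3.3, with 7 comparisons across genes and shares; DESeq2 1.42.0, other filters, normalization, membership rules, thinning to the smallest sum, and leaving out sums were alternatives. The procedure was tested on simulated data. The difference from other cells used sums of both kinds of cell in 1 fit. A library term was used as a pairing because pools of a library shared a droplet run per the labels; deviations from group means correlated at 0.122 to 0.248 in all pool pairs. Nothing states separate animals for the 2 libraries, but by Xist and Ddx3y the 2 sums of a pool differed in sex. They were thus not repeats of the same animals. The p-values measure the spread between these sums, in which sex, library and technical differences cannot be told apart. Intervals cover counting error only. Doublets were removed only by the hashtags; Scrublet (scanpy 1.11.5) marked 4 of 366 and 1 of 190 members, and leaving these out was an alternative. Where many genes passed, not all are named, and 1 of those called in mesenteric cells is not reported here.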

Additional observations from a re-analysis of the deposited data

How the results depend on the processing

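Without a filter on low counts, calls numbered 21 for the tissues, 3 for the genotypes, 11 in peripheral and 23 in mesenteric cells, 14 for the difference between tissues, and 7 (genotype) and 8 (tissue) for the differences from other cells. With the library as replicate block they were 26, 0, 3, 20 and 9, and 6 and 44 with the pool as block. With a genotype by library term added they were 29 (tissue) and 3 (genotype). In alternatives chosen after seeing the data, the block without the 39 members with mural, fibroblastic or blood cell genes gave 33 (tissue), 17 (mesenteric), 10 (difference between tissues), 7 and 40 (differences from other cells), and the block without the Xbp1-KO mesenteric sum of library 2 gave 33 (tissue), 5 (genotype), 5 (peripheral), 19 (mesenteric) and 16 (difference between tissues). DESeq2 gave 2 for the tissue difference from other cells. A panel sum of at least 3, or a panel without Fbln5, gave 1 call each for the genotypes and for mesenteric cells. Leaving out 1 sum or 1 library gave 0 to 12 calls for the tissues, 0 to 6 for the genotypes, 0 to 6 in mesenteric cells, 0 in peripheral cells, 0 to 6 for the difference between tissues, and 0 to 1 and 0 to 5 for the differences from other cells. With 1 library left out, the fits in a single tissue had no residual degrees of freedom and were not run.

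The share difference between the genotypes ranged from -3.21 to 1.83 points without a library and was 0.09 without the venous panel. The adjusted p for the tissue calls ranged over 23 alternatives from 1e-10 to 0.245 for Hspb1, 3.9e-10 to 0.137 for Dnajb1, 2.7e-06 to 0.36 for Mgp and 6.37e-06 to 0.407 for Rhob. Gsn in peripheral cells ranged from -5.21 to 1.08 and C3 in mesenteric cells from -0.56 to 7.92 when single sums were left out. The difference of the Xbp1 effect between tissues, not called, ranged from -0.15 to 0.39 and was -0.01 in thinned sums. The cause of these shifts was not tested. Among the other values of single genes and alternatives, 1556 kept their direction and side of the threshold, 155 came to pass it and 22 no longer passed. With 28 cells in the smallest sum, genes of low level could not be judged.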
